A study of Mus musculus with 6 samples.

Results

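Among the polyadenylation sites (pAs) of the mouse testis, 603 intronic pAs took 50% or more of the sense reads of their gene in at least 1 week of postnatal development. They were selected on the measured counts themselves: a pA typed as intronic, assigned to a single gene, with at least 50 reads over the 6 libraries, and with that share of all last-exon, intronic and upstream-exon reads of the same gene in 1 week or more. The 603 sites lay in 585 genes and made up 40.5% of the 1489 intronic pAs that reached the read minimum, out of 73540 pAs in the table. In 18 genes 2 sites met the rule. Because the shares chose the members, they are described below without a test.

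Testes of FVB mice, an inbred strain with no genetic change or treatment named in the labels, were taken at 1, 2, 3, 4, 5 and 6 weeks (w) after birth. RNA ends were sequenced by 3'READS, which captures poly(A)+ fragments and reads the position at which each RNA was cleaved. There was 1 library for each week, with 3497870 to 5427850 reads in single-gene pAs, and the libraries were grouped as 1–3 week and 4–6 week samples (3 each). Neither the labels nor the methods say how many animals went into a library.

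Cleavage and polyadenylation inside an intron competes with splicing of that intron. When the intronic pA is used, the RNA ends early and the exons downstream are lost, so the encoded protein is usually truncated or given another C-terminus. U1 snRNP, which binds 5' splice sites, is known to protect introns from such cleavage, and the testis is known for many tissue-specific RNA isoforms. A count of 3' ends does not show where the RNA began, so an intronic end can belong to a shortened RNA of the gene or to a separate RNA that starts within it.

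The tissue label was checked against cell type markers, as last-exon RPM (reads scaled to a common library size). The 7 spermatid nuclear protein genes (protamines and transition proteins among them) summed to 80.3 to 745 in the 1–3 week samples and to 109669 to 243159 in the 4–6 week samples. The Sertoli cell list went the other way, from 12806 at 1w to 1064 at 6w. Other lists moved earlier: the acrosome list went from 194 at 2w to 4489 at 3w. The sperm tail and meiotic lists were highest at 3w (6518 and 19484). The spermatogonial, Leydig cell and vascular, blood and immune lists were lowest at 6w (449, 388 and 408). These lists move with age in the same libraries as the shares below, and their part in the shares was not tested. In such bulk samples, fewer cells of a type and less RNA per cell cannot be told apart.

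The bases before a set of these sites are shown because they hold the signals that the results below turn on. Each line covers the 30 bases from 35 to 6 bases before the cleavage position in mm9 (NCBIM37), 5' to 3' on the strand of the gene, and capitals mark the polyadenylation signal hexamer. The first 4 sites led in reads or stayed dominant, the next 5 gained share with age, and the last 4 lost it.
Sin3b, chr8:75263766-75263795, plus strand: tgactttctacagtAATAAAatgatttggc
Eif4e2, chr1:89124604-89124633, plus strand: aacagctgagatcacaAATAAAtggtgcta
Cxcl12, chr6:117124999-117125028, plus strand: ctagcAATAAAatgctaattgtttcatgct
Tdrkh, chr3:94230103-94230132, plus strand: aggaaacaATTAAAaattctgtttttgtga
Odf2, chr2:29778025-29778054, plus strand: atcagtgctgtgaAATAAAagtctggtgtg
Slc38a9, chr13:113474458-113474487, plus strand: gttgaattccagAGTAAAcagtgacaagaa
Clip4, chr17:72199470-72199499, plus strand: agctcaATTAAAcatgtcacaagtggctaa
Sorcs2, chr5:36521217-36521246, minus strand: gatccagagtttaaactcatgtgacctcaa
Pygl, chr12:71324990-71325019, minus strand: cagtgttgaccgtgttatgaaggttcagaa
Erc2, chr14:28466957-28466986, plus strand: gagtaaatacttcacATTAAAacttgagtg
Ttll11, chr2:35832963-35832992, minus strand: gaagttgctcAATAAAtatttgttgaatgc
BC049715, chr6:136782250-136782279, plus strand: acaacgttgtaataacAATAAAattgtagc
Macrod1, chr19:7244789-7244818, plus strand: ctcatatacataaAATAAAtaatatttaaa
The sites of Sorcs2 and Pygl carried none of the 12 hexamers searched in the 40 bases before cleavage.

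Most members held a usual signal. Searched on the gene's strand, AATAAA stood in the 40 bases before 310 of the 603 sites (51.4%) and ATTAAA, counted where AATAAA was absent, before 127 (21.1%). The other 10 hexamers searched differ from AATAAA at the first base (TATAAA or CATAAA or GATAAA), at the second (AGTAAA or ACTAAA), at the third (AAGAAA), at the fourth (AATGAA) or at the fifth (AATATA or AATACA or AATAGA). A single hexamer was counted per site, and 67 sites (11.1%) held none of the 12. Over the 886 other intronic pAs the shares were 49.9% for AATAAA, 19.4% for ATTAAA and 11.6% for none, and over 17465 last-exon pAs 55.0%, 16.8% and 11.4%. The members as a whole thus held signals about as often as other sites did. A run of 6 or more A in the 10 bases after the site, where a genomic A stretch could be taken for a tail, was found at 2.0% of members, 2.4% of other intronic pAs and 0.55% of last-exon pAs.

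Signals differed between members by the direction of their share. Among the 208 sites whose 4–6 week shares all lay above the 1–3 week ones, 40.9% had AATAAA and 18.8% had none of the hexamers. Among the 80 sites with the opposite order, 63.8% had AATAAA and 6.25% had none. The other intronic pAs split the same way, with AATAAA at 44.0% of the 323 with higher and 61.2% of the 129 with lower late shares. UGUA, the element bound by cleavage factor I, stood in the 100 bases before 40.4% of the higher and 50% of the lower members, beside 53.7% of last-exon pAs. These are counts of letters in fixed windows, given with no test.

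"Intronic" here follows the authors' assignment to RefSeq transcripts, and a part of the members are ends of other known isoforms. Within 50 bases of 188 members (31.2%), GENCODE vM1 placed the end of a transcript of the same gene, a coding one for 130 (21.6%) and a non-coding one for 58 (9.6%). For other intronic pAs the total was 23.0%. A further 54 members (9.0%) lay inside an annotated exon, 352 (58.4%) lay in an annotated intron only and 3 at the end of another gene's transcript. The other 6 belonged to genes not matched to an annotated transcript. The Cxcl12 site is an example of the exon class, and the sites of Sin3b, Eif4e2 and Odf2 matched ends of coding transcripts.

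**Figure D1:**
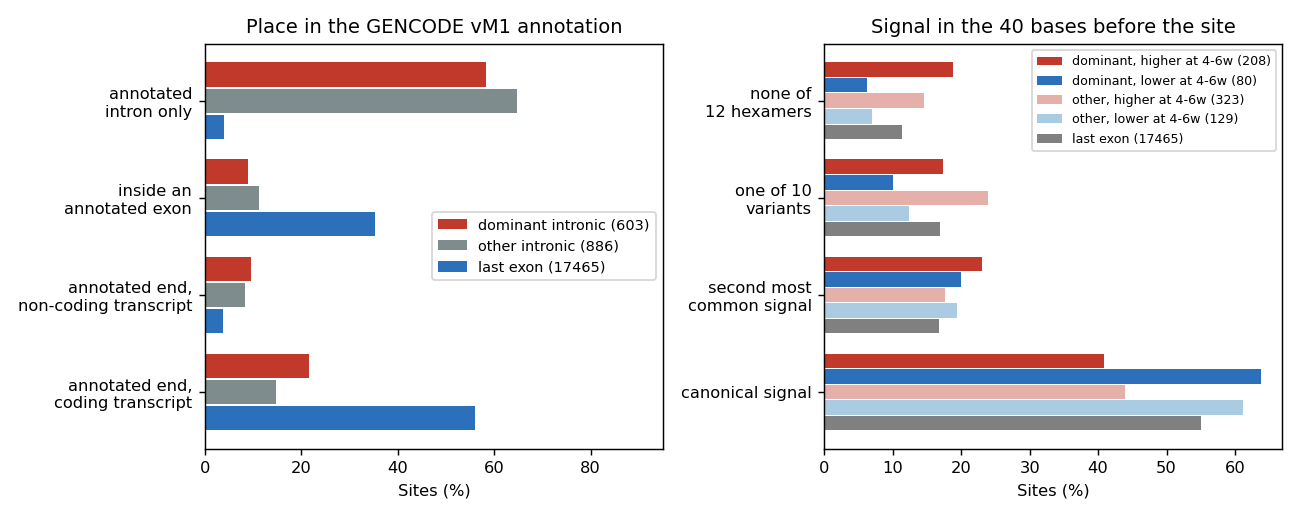
Left, percent of sites (x axis) in each class of place in the annotation, for the 603 dominant intronic, 886 other intronic and 17465 last-exon pAs. Right, percent of sites with each signal class in the 40 bases before cleavage, by the order of shares between 4–6 and 1–3 week samples (canonical, AATAAA; second most common, ATTAAA); sites with higher late shares held AATAAA at 40.9% and 44.0%, sites with lower late shares at 63.8% and 61.2%.

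Most intronic pAs, members or not, lay within the coding region. Of 571 sites placed in an intron of a coding transcript, 497 (87.0%) did so, beside 89.5% of other intronic pAs, 49 (8.6%) lay before it and 25 (4.4%) after it. Where the site lay within, a median of 48.2% of the coding bases stood upstream of it. In transcripts with 5 or more introns (489 members), 72 sites (14.7%) lay in the first intron and 96 (19.6%) in the last, beside 12.7% and 17.1% for other intronic pAs. The first intron held 17.1% of the members with higher late shares and 8.7% (6 of 69) of those with lower ones, beside 14.6% and 12.4% for other intronic pAs. The introns themselves were long, with a median of 6974 nt for members and 4980 nt for other intronic pAs.

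Dominance became more frequent with age. In weeks with at least 20 sense reads of the gene, 557 of the members reached 50%, and the week in which they first did so was week 1 for 170, week 2 for 48, week 3 for 90, week 4 for 146, week 5 for 52 and week 6 for 51. The other 46 reached it only in weeks with fewer reads. For the 257 members with at least 20 sense reads in every week, the median share from the first to the last week was 37.2%, 40.3%, 44.8%, 53.8%, 55% and 60.6%. The number at 50% or more was 103, 105, 114, 143, 157 and 177. Of these 257, 52 stayed at 50% or more in all 6 weeks, 41 did so in all 4–6 week samples and no earlier one, and 13 did so in all 1–3 week samples and no later one. The 667 other intronic pAs with 20 sense reads in every week also rose, from a median share of 4.84% at 1w to 10.1% at 6w.

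Shares at 4–6w lay above all those at 1–3w for 208 of the 603 members, below them for 80, and overlapped or lacked a value for 315. Over all 1489 intronic pAs with 50 reads, the members included, the background was 35.7% higher and 14% lower, so the members' order was near that of intronic pAs in general. The step from 3w to 4w moved most sites: among the 257, 113 gained 10 percentage points or more and 38 lost as much. From 1w to 2w the counts were 43 and 18, and from 2w to 3w they were 88 and 52. The later steps moved fewer sites, 57 up and 38 down from 4w to 5w and 52 and 27 from 5w to 6w. The 667 other intronic pAs with 20 sense reads in every week moved too. For them the counts were 42 up and 22 down from 1w to 2w and 60 and 70 from 2w to 3w. From 3w to 4w they were 108 and 28, then 48 and 24, then 51 and 32. Gains thus outnumbered losses from 3w to 4w in both sets.

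**Figure D2:**
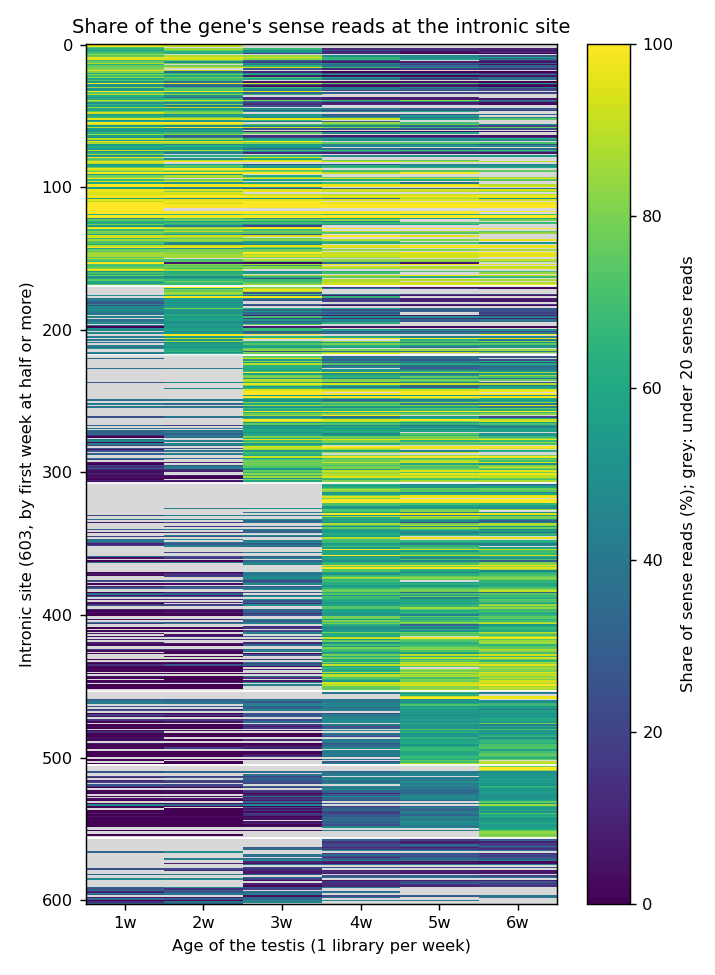
Share of the gene's sense reads at each of the 603 intronic sites (rows) in each week (columns), in percent, with weeks under 20 sense reads in grey; white lines part the rows by the first week at 50% or more. The block of 146 sites that first reached it at 4w is dark or grey at 1w and 2w.

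The most abundant member was an end that dominated at every age. The Sin3b site, in intron 6 of a gene for a scaffold of histone deacetylase complexes, took 9292, 12652, 10640, 7368, 6209 and 5669 reads from 1w to 6w, or 98.3%, 98.8%, 99.2%, 99.6%, 99.6% and 99.8% of sense reads. The 95% Wilson intervals were 98.1 to 98.6% at 1w and 99.6 to 99.9% at 6w (counting error only, since PCR copies are not independent molecules). All 3 late shares lay above the early ones, by a pooled difference of 0.87 percentage points.

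Other stable members had known roles inside and outside the germ line. Eif4e2, which encodes a cap-binding repressor of translation, had shares of 96.3%, 97.1%, 94.8%, 93.0%, 94.4% and 94.4%. Tdrkh, a tudor-domain gene of the piRNA pathway, had shares between 88.1% at 4w and 93.6% at 1w. Both stayed far above 50% throughout. The site of the chemokine gene Cxcl12 kept 92.9% to 96.7% of sense reads while its reads went from 5057 at 1w to 289 at 6w. Nfkbib, an inhibitor of NF-kappaB, had no read outside the site in any week, with 262 reads at 1w and 1638 at 6w. It is 1 of 66 members (10.9%) in genes without a last-exon read, beside 2.5% of other intronic pAs. Last-exon reads are part of the denominator of the share, so the rule itself favours such genes and nothing is read from this contrast.

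Some members gained most of their share between 2w and 3w. The site of Odf2, a component of outer dense fibres and centrosomes, had shares of 3.79%, 9.30%, 75.8%, 91.1%, 94.2% and 94.9% from 1w to 6w, with 19, 52, 1588, 2807, 4010 and 3963 reads. The change came between 2w (interval 7.16 to 12%) and 3w (73.9 to 77.6%). Slc38a9, a lysosomal amino acid transporter and arginine sensor, followed the same course with 6.9%, 8.89%, 75.9%, 92.8%, 93.5% and 95.5%. Its site lay in intron 2 of 14, with 6.55% of the coding bases upstream.

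Other members had their largest step between 3w and 4w. The share of Clip4, a gene for a microtubule-binding CAP-Gly protein, was 5.59%, 7.96%, 44.8%, 92.8%, 92.7% and 93.2%, part of the gain being present at 3w. For Sorcs2, a sortilin-family receptor, it was 0.81%, 0%, 0%, 78.5%, 81.8% and 86.5%, with 1, 0, 0, 113, 260 and 505 reads at a site in intron 2 of 26. For Pygl, the liver form of glycogen phosphorylase, it was 0% in all 1–3 week samples and 90.6%, 97.4% and 100% later, on 7 to 31 early and 32 to 181 late sense reads. In these 3 genes no late share overlapped an early one, and the zeros of Pygl at 3w still allow up to 35.4%.

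Among genes with at least 50 sense reads in both the 1–3 and the 4–6 week samples, the other sites with the largest gains were in Zbtb7c, Srpx, 2810417H13Rik, Bcor and Rspo4. Their pooled shares were 0% to 11.6% in the 1–3 week samples and 79.3% to 94.4% in the 4–6 week samples. Each was covered by few reads, and Bcor, a BCL6 corepressor, rested on 14, 19 and 28 sense reads in the 4–6 week samples. Srpx had already reached 43.5% at 3w, whereas the others stayed at 10.5% or less in every 1–3 week sample.

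In Msl1, a subunit of the MSL histone acetyltransferase complex, 2 members lay in the same intron and went opposite ways. The site at chr11 position 98662366 had shares of 76.7%, 78.5%, 65.0%, 40.5%, 35% and 30.6%. At position 98661809, upstream of it, the shares were 14.7%, 16.3%, 24.2%, 48.9%, 54.3% and 61.1%. The pair exchanged rank between 3w and 4w, the nearer end being the larger from then on, and since both shares have the same denominator they are not independent.

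**Figure D3:**
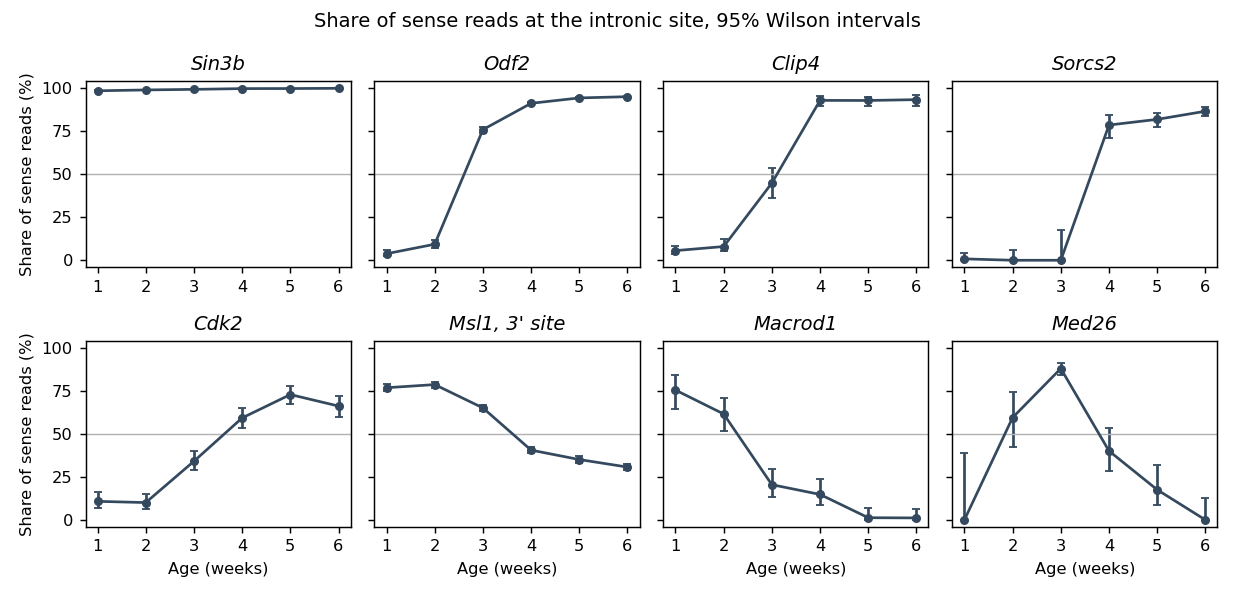
Share of sense reads (y axis, percent) at the intronic site of 8 genes by age in weeks (x axis), 1 library per point, bars giving 95% Wilson intervals and the grey line 50%. Sin3b stays above 98%, Odf2 crosses the line at 3w, Clip4, Sorcs2 and Cdk2 at 4w, the downstream Msl1 site and Macrod1 go below it, and Med26 has its highest share, 87.8%, at 3w.

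Losses of share went with more reads elsewhere in the gene for several members. The BC049715 site had 75%, 100%, 80%, 16.5%, 4.62% and 4.55% of sense reads, but its own reads were 9, 25, 28, 19, 9 and 10 while the gene went from 12 to 220. Erc2, known from presynaptic active zones, had 65.0%, 84.3%, 66.7%, 12.8%, 11.4% and 9.14%, on 26 reads at 1w and 18 at 6w. In both genes every late share lay below every early one. Macrod1, an ADP-ribose hydrolase, differed in that the site itself lost reads, 55, 59, 19, 13, 1 and 1, at shares of 75.3%, 61.5%, 20.4%, 14.8%, 1.27% and 1.15%. Ispd, Slc39a10 and Ttll11 had pooled early shares of 62% to 75% and late shares of 9.09% to 27.9%, also without overlap.

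A few sites peaked in the middle of the series. Med26, a Mediator subunit, had 0, 19, 289, 22, 7 and 0 reads at its site, and shares of 0%, 59.4%, 87.8%, 40%, 17.5% and 0%. The Arhgap28 site had 133 reads at 3w (79.6%), 3 at 5w and none in the other weeks. The Arhgap28 pattern thus rests on the 3w library alone, whereas Med26 was at 50% or more at 2w too, on 32 sense reads. At 2w, the Spata4 site took 107 of 206 sense reads (51.9%), and its share was 8.02% or less in every other week, when 3w to 6w brought 5311 to 11827 sense reads. Erc2 and Ispd also had their highest share at 2w, as did Ccdc104 at 66.2%, Pde4dip at 80.8% and Agbl3 at 52.3%.

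**Figure D4:**
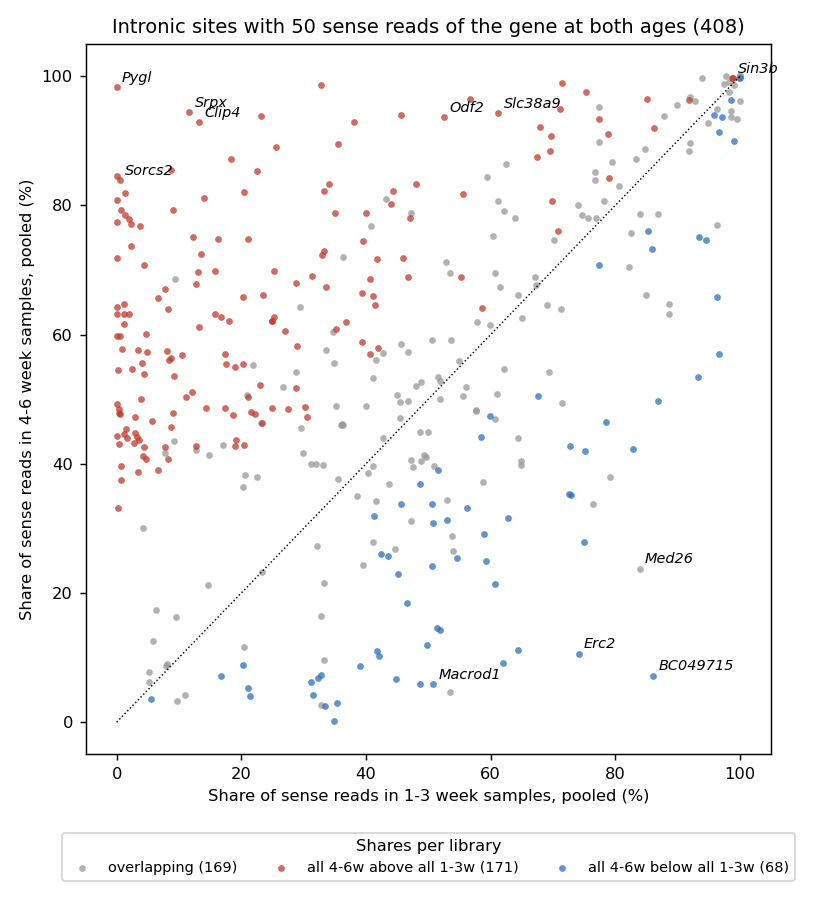
Pooled share of sense reads at the site in 1–3 week (x axis) and 4–6 week samples (y axis), in percent, for members whose gene had 50 sense reads at both ages; colours give the order of shares per library and the dotted line equality. Pygl, Sorcs2, Srpx and Clip4 lie at the upper left, BC049715 and Erc2 at the lower right, and Sin3b in the upper right corner.

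Members were spread over gene types. They were found in 585 of 12548 genes with 50 sense reads (4.66%), and 95.2% of the sites lay in protein-coding genes, 3.5% in lncRNA genes and 1.2% in transcribed pseudogenes. Ion channels had 7 of 75 genes (9.33%) and solute carriers 15 of 212 (7.08%). A list meant for cilium and axoneme had 19 of 260 (7.31%), but its genes with members were mostly Ccdc and Ttc names. A role of these genes in cilia was not checked. Genes named as RIKEN clones had 60 of 958 (6.26%). Predicted Gm genes and other locus names, among them names that start with BC, had 21 of 314 (6.69%). These 2 lists overlap, and C030037D09Rik, D030047H15Rik and D630003M21Rik were counted in both. Zfp zinc finger genes had 10 of 318 (3.14%), ubiquitin enzymes and ligases 5 of 297 (1.68%) and chromatin modifiers 1 of 53 (1.89%). Kinases (9 of 187), small GTPase regulators (9 of 156), cell surface receptors (6 of 120), Tmem genes (5 of 155), Adam and Prss proteases (3 of 70), receptor kinases (2 of 31) and RNA host genes (1 of 15) lay between. Except for chromatin modifiers and receptor kinases, which were sets of chosen symbols, these lists were drawn by patterns in gene names and not by function. The chromatin set leaves out members such as Sin3b and Msl1, named above for histone deacetylase and acetyltransferase complexes. The low and high rates thus depend on which symbols a list holds, and no gene type is set apart by them. These counts carry no test.

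Markers of germ and somatic cells were split between lists without and with members. None of 7 spermatid nuclear protein genes, 14 Sertoli cell genes, 14 vascular, blood and immune genes and 11 reference genes held one. Acrosome genes had 2 of 21, sperm tail genes 2 of 17, spermatogonial genes 2 of 15, meiotic genes 1 of 28 and Leydig cell genes 1 of 9, beside 4.66% of all genes. In Acrbp, which encodes the acrosin-binding protein, the site kept 50% to 66.7% of sense reads at every age. Tsga10, a sperm tail gene, went the opposite way to Odf2, with 75.4%, 49.5%, 18.3%, 6.76%, 8% and 5.63%. Lhcgr, the luteinizing hormone receptor of Leydig cells, had 56.4% to 63.3% early and 45.0% to 53.7% late.

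RNA-processing genes and regulators were members too. Among 23 cleavage and polyadenylation factors, Papola, a poly(A) polymerase, had 45.7% to 66.8% and Cstf3, the CstF subunit known to carry a regulated intronic pA, had 56.9% to 79.1%. For neither did early and late shares separate. Of 41 splicing factors, Ptbp2, a splicing repressor of neurons and germ cells, had 1.98%, 3.05%, 13.9%, 30.9%, 34.3% and 55.7%, and U2af1, the 3' splice site factor, had 82.2% to 100%. Brdt, the testis bromodomain protein that binds acetylated histones, had 2.33%, 14.8%, 42.4%, 65.6%, 65.0% and 71.5% at a site in intron 7 of 18.

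Of the sites in the 9 kinase genes, 6 had higher and 1 lower shares at 4–6w, beside 35.7% and 14% over all intronic pAs, a count too small to set kinases apart. Cdk2, a cell cycle kinase that also acts in meiosis, had 10.8%, 10.1%, 34.0%, 59.2%, 72.7% and 66.1%. Map4k3 had 0%, 0.98%, 15.1%, 64%, 70.5% and 74.1%. Ntrk3, the receptor of neurotrophin-3, had 0 of 12, 6 and 9 sense reads at its site in the 1–3 week samples and 76.9%, 87.6% and 86.2% of 65, 113 and 189 later. In the 10 zinc finger genes with members, 7 sites had higher and 1 lower late shares, beside the same background and likewise with no test. Zfp451 had 4.35% at 1w and 64% at 6w.

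Total sense output of the genes was tested separately, since the rule used a share within the gene and not its level. The read minimum still favours genes with high counts in some week, and the site's reads are part of the total. Of 575 member genes tested, 202 were higher and 70 lower in 4–6 week samples (edgeR quasi-likelihood test, Benjamini-Hochberg adjusted p below 0.05 over 11842 genes), that is 35.1% and 12.2%, beside a background of 18.5% and 23.5% over all genes. All genes are not an even background here, since 135 members had fewer than 60 sense reads in their gene at 1–3w and 60 or more at 4–6w, and 74 the opposite, so nothing is read from this difference. On last-exon reads, which leave the site out, 68 of 338 member genes were higher and 66 lower (20.1% and 19.5%), beside 17.7% and 22.5% over all genes. The median log2 change of sense reads was 1.21 for member genes and -0.07 for all genes. Age within a group is part of the spread, and each week had 1 library. With library totals in place of TMM scaling the split turned to 125 higher and 170 lower, beside 1259 and 6095 of all genes. The median of all genes moved to -1.22, so directions are relative to the other genes. Without the 5w library, 55 member genes were higher and 0 lower by edgeR, beside 525 and 15 of all genes. Without 6w they were 54 and 0, beside 549 and 18. At an unadjusted p below 0.05 in these edgeR fits, 53 and 58 member genes were lower. All genes were not counted at that limit, so nothing is read from these counts. DESeq2, run on all libraries only, gave 258 and 56, beside 3379 and 2495 of all genes. Of the 202 genes, 53 were called whichever library was left out, and of the 70 lower genes 0 were. The same share over all genes was not counted.

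The largest called gains were in genes with almost no early reads. Their sites met the read minimum through the 4–6 week samples, where the genes are high, so these calls describe the members and are no independent support. Vmn2r-ps11, a vomeronasal receptor pseudogene, had 0, 0, 1, 149, 290 and 384 sense reads (adjusted p = 0.0053), and its site lies at an annotated end of Vmn2r7, a gene of the same multigene family, so the assignment is uncertain. The 1700125H03Rik gene had 1, 0, 0, 75, 149 and 261 (adjusted p = 0.0053). No fold is given for either, because the early samples held 1 read in all. 4930544D05Rik had 6, 1, 7, 824, 1733 and 2597, a log2 change of 9.29 ± 1.02 (SE, adjusted p = 0.0056). At the other end, Sall4, a transcription factor of undifferentiated spermatogonia, had 222, 108, 21, 7, 4 and 2 and fell by 3.83 ± 0.88 (adjusted p = 0.020). Its site qualified only through 2 of 4 reads at 5w. Gfra1, the other spermatogonial gene with a member, went the opposite way, by 5.43 ± 1.09 (edgeR, adjusted p = 0.016, up to 0.083 without 1 library). Oas1b fell by 3.64 ± 0.73 (adjusted p = 0.016) and 2810410L24Rik by 3.11 ± 0.66 (adjusted p = 0.018). The calls of Sall4, Oas1b and 2810410L24Rik were lost in at least 1 fit without 1 library, with adjusted p up to 0.096, 0.082 and 0.091.

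Reads of the last exon alone, which exclude the site, moved differently in the 2 kinds of member. Among 142 genes with higher late shares and a last-exon test, 17 were higher and 38 lower, with a median log2 change of -0.40. Among 55 genes with lower late shares, 22 were higher and 1 lower, with a median of 1.74. The background over 11269 genes was 17.7% higher and 22.5% lower. Last-exon reads are part of the denominator of the share, so these counts describe the members and are no independent support. Clip4 is an example: its sense total rose by 1.29 ± 0.37 (log2, adjusted p = 0.034, up to 0.11 without 1 library), while its last-exon reads changed by -2.20. For Odf2 the sense total rose by 2.58 ± 0.77 (adjusted p = 0.037, up to 0.12 without 1 library) and last-exon reads changed by -0.15.

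**Figure D5:**
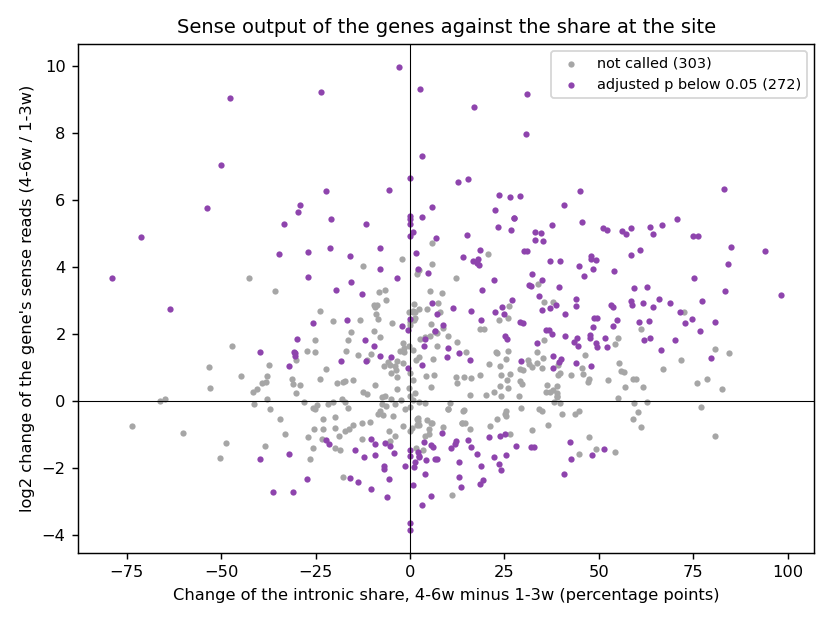
Change of the intronic share from 1–3 to 4–6 week samples in percentage points (x axis) against the log2 change of the gene's sense reads (y axis), 1 point per tested member gene; purple marks adjusted p below 0.05. The site's reads enter both axes, and genes with gains and with losses of share both lie more often above 0 than below, with median log2 changes of 1.44 and 0.62 where the shares of the 2 ages did not overlap.

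The limit of 50% falls among sites that hardly differ. Just inside it were Sphkap, with 2 of 4 sense reads at 3w, a second site of Ankrd36, with 2 of 4 at 1w, and Cep68, with 5 of 10 at 5w. Just outside were Wdr26 at 49.8%, Asap1 at 49.7% and 4930513N10Rik at 49.6%, on 161 to 464 sense reads in that week. A share of exactly 50% comes easily from few reads, whereas a share just under it needs many. No difference in coverage between members and other sites is thus read from these examples.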

How the data were processed

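Testis RNA of FVB mice was sequenced by 3'READS at 1w to 6w (6 libraries). The authors mapped reads to mm9 with Bowtie 2 (version not given in the sources used here), kept reads with unaligned tail bases, clustered neighbouring ends and typed each pA against RefSeq genes. The deposited values are raw read counts per pA and library, with no normalization. PCR copies were not removed by molecular identifiers, so intervals cover counting error only.

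Shares are site reads over all sense reads of the gene (last exon, intron, upstream exon) in a library, with 95% Wilson intervals. The members, gene lists and the rule for named genes were chosen with earlier results of these data known. The genes named are the members with most reads, with the largest gains and losses of pooled share (genes with 50 sense reads at both ages), dominant in all weeks, leading each gene list, next to the 50% limit, with the largest called changes, or peaking at 2w or 3w. Bases and annotation came from NCBIM37 and GENCODE vM1. For 597 of 603 sites the gene was matched to annotated transcripts, by its symbol or else by an older symbol or synonym.

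Sense counts per gene, without pAs assigned to several genes, were tested for 4–6w against 1–3w (3 libraries each, replicates only in the sense of neighbouring ages) with edgeR 4.0.16 in R 4.3.3 (TMM, filterByExpr, quasi-likelihood F test, Benjamini-Hochberg). The SE is the log2 change over the root of F. DESeq2 1.42.0, other scalings, filters, last-exon reads and leaving out each library were the alternatives. The library totals given by the study and 2 further settings of the share rule were added after seeing the data. The fit was tested on simulated counts. Other steps used Python 3.11.15. No column of another sample was found in the table.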

Additional observations from a re-analysis of the deposited data

Results flagged for a closer look

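Data outside the comparisons also held the pattern. Among intronic pAs assigned to several genes, which the selection leaves out, 15 gene assignments at 13 distinct pAs reached the same minima of reads and share. The pA listed for Poln had the most reads, with 620, 480, 382, 199, 160 and 145 from 1w to 6w, and that of Hyal3 had 20, 18, 36, 142, 125 and 186. Which gene such reads come from cannot be told from the table. Groups of 3 libraries are too small for a test of single outlying samples.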

How the results depend on the processing

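The number of members was 427 with 100 reads required, 557 with 20 sense reads required in the week of dominance and 618 with pAs of several genes kept (616 distinct pAs), against 603, and 496 (without 6w) to 555 (without 4w) with a library left out. At 75% of sense reads in place of 50% it was 319, with 91 sites higher and 39 lower at 4–6w, fewer by construction. The background over all 1489 intronic pAs, which the share limit does not change, stayed at 35.7% and 14%. Of the 257 members with 20 sense reads in all weeks, an alternative chosen after seeing the data, 124 were higher and 53 lower. Of the 667 other intronic pAs under the same limit, 261 were higher and 116 lower. The rule used the shares, so nothing is read from this difference. The 202 member genes higher and 70 lower by edgeR stood beside 2194 and 2781 of all genes. They became 258 and 56 with DESeq2 (all genes 3379 and 2495). With RLE size factors they became 221 and 50 (all genes 2521 and 2297). They became 125 and 170 with library totals (all genes 1259 and 6095). With the totals of the study, also chosen after seeing the data, they became 123 and 177 (all genes 1237 and 6299). Last-exon reads, which left 338 member genes to test, gave 68 higher and 66 lower (all genes 1990 and 2541). With a library left out, 54 (without 6w) to 342 (without 3w) were higher and 0 (without 5w or 6w) to 106 (without 3w) lower. All genes moved too, from 549 and 18 without 6w and 525 and 15 without 5w to 4640 and 4333 without 3w. Without 2w the member counts were 108 and 12 (all genes 1089 and 635). Without 1w they were 151 and 31 (all genes 1589 and 1498), and without 4w 137 and 18 (all genes 1388 and 816). The cause of these moves was not tested. Of 17 named genes called, none changed direction except on last-exon reads, where the log2 change was -2.20 for Clip4, -0.15 for Odf2 and -2.04 for Sorcs2. Of the same 17, 13 lost the call without 5w and 12 without 6w. No paired analysis was possible because each week is 1 library and replicate numbers only name the weeks of a group. Depth limits the shares of low genes most: 46 members never had 20 sense reads in a week of dominance.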
